A study of Mus musculus with 2 samples.

Results

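Distal intergenic peaks of the microRNA miR-9 were chosen from the deposited peak list by annotation alone. A peak was a member when HOMER, the annotation program of the study, called it intergenic, named no repeat in its detailed annotation, and placed it over 10 kb and at most 100 kb from the nearest transcription start site (TSS). Of the 17922 peaks of the list, 1744 were members, or 9.73% (95% exact interval 9.30 to 10.2%). The peaks came from ChIRP-seq, in which oligonucleotides pull an RNA out of fixed chromatin and the DNA held with it is sequenced. The cells were untreated MLg, a mouse lung fibroblast line (ATCC CCL-206). There were 2 libraries, 1 captured with biotinylated oligonucleotides against mature miR-9 and 1 of the input chromatin that served as control of the peak calling. Neither had a replicate, and a capture with a control probe was not analysed here. All intervals therefore cover counting error only, and they treat peaks as independent although neighbours can share a source. The depth of the libraries was unknown, and the deposited score was 0 in all 17922 peaks, so no peak could be ranked by enrichment.

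MicroRNAs are short RNAs best known for pairing with mRNAs in the cytoplasm through their seed, bases 2 to 8, which leads to silencing. Some are also found in the nucleus, on chromatin. Intergenic sequence far from genes holds many enhancers that act on promoters over a distance, along with much sequence of no known function. The study asked where nuclear miR-9 contacts chromatin, and the members are peaks far from genes but short of gene deserts.

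The mature miRNA and the stretches of it that occur in members are shown first, because miR-9 was the RNA captured and words of 10 or more of its letters were several times more frequent in members than in comparable sequence. The mature sequence is that of RefSeq, with the seed in capitals.
mmu-miR-9-5p: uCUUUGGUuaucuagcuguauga
The 3 members with the longest unbroken match to it, of 13 bases, and 5 of the 9 with 12 bases follow, read 5′ to 3′ on the strand that carries the letters of the miRNA, with the matching bases in capitals. Positions are in mm10, and each name is the gene that HOMER assigned to the peak.
Ism1, chr2:139650902-139650930, plus strand: aaagtgggTATCTAGCTGTATttattgtt
Olfr441, chr6:43061946-43061974, plus strand: ttccaaaaCTTTGGTTATCTAcagctaaa
4930503E24Rik, chr10:124449756-124449784, plus strand: aaaacatgCTTTGGTTATCTAcattattc
Dcaf8, chr1:172136710-172136737, plus strand: tctgtataTGGTTATCTAGCactttttc
Gm12295, chr11:65328808-65328835, minus strand: atctagttTCTAGCTGTATGctccaggg
Btbd35f14, chrX:33732564-33732591, plus strand: tgttaattTCTTTGGTTATCgaaggagg
Mir874, chr13:57972597-57972624, minus strand: tttttttcTTATCTAGCTGTctcacaag
Mfap3l, chr8:60694810-60694837, minus strand: ttacaggtTTATCTAGCTGTggtgaaac

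The longest match was 13 bases, found in 3 members, and 9 more had a match of 12 bases. The peak upstream of Ism1, which codes for a secreted protein, held bases 9 to 21 of the miRNA and lay 27018 bases from the start of the gene. The peaks at Olfr441, an olfactory receptor gene, and at 4930503E24Rik both held bases 2 to 14, with the whole seed. Of these 8 members, 7 had a median of 1 copy per word of 32 bases, and the peak at Btbd35f14 had 18 copies. In the peaks at Olfr441 and 4930503E24Rik the match lay within 9 and 15 bases of the peak centre. In the peak at Dcaf8, of 2485 bases, it lay 1119 bases from the centre.

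Exact stretches of miR-9-5p were several times more frequent in members than in comparable sequence. A word of 10 bases, on either strand, was present in 105 of the 1744 members, or 6.02% (4.95 to 7.24%). Windows of the same widths, taken every 200 bases through all intergenic sequence 10 to 100 kb from a TSS whose centre was not masked as a repeat, held one in 0.969% of cases. The fold was 6.21 (5.11 to 7.47), and 6.31 when the windows were also weighted to the GC content of the members. With words of 8 bases the fold was 1.67 (1.54 to 1.81), from 465 members, and with 12 bases it was 12.3 (6.36 to 21.4), from 12 members. The capture oligonucleotides are complementary to miR-9, and so to DNA that holds its letters. Capture of such DNA by the oligonucleotides and contact of the miRNA with it cannot be told apart in these data.

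All parts of the miRNA were represented, though not to the same extent. Each of the 14 words of 10 bases occurred in 9 to 19 members, with an interval of the fold above 1. The word of bases 6 to 15 had the highest fold, 15.4 (8.46 to 25.8), followed by bases 7 to 16 with 13.5 (6.16 to 25.5), bases 10 to 19 with 12.8 (7.70 to 19.9) and bases 12 to 21 with 12.7 (7.53 to 19.97). The 2 words that contain the whole seed, bases 1 to 10 and 2 to 11, had folds of 3.17 (1.45 to 6.001) and 4.72 (2.44 to 8.23). The intervals of the first of these and of the words at bases 6, 7, 10 and 12 did not overlap.

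**Figure D1:**
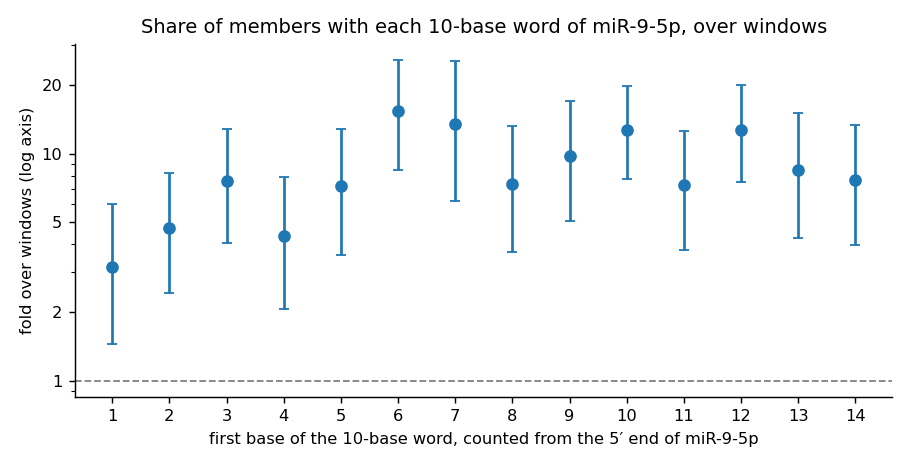
Fold of the share of members over the share of windows of the same widths (log axis) for each 10-base word of miR-9-5p, by the first base of the word. Points are folds over 1744 members, bars are exact 95% intervals and the dashed line marks equal shares. All 14 words lie above the line, with the highest fold, 15.4, at base 6 and the lowest, 3.17, at base 1.

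The words of miR-9-5p had no preferred direction and were spread over the members. In 59 of the 104 members with a word and a gene of known strand the miRNA letters lay on the coding strand of the assigned gene, or 56.7% (46.7 to 66.4%). On the plus strand of the chromosome they lay in 50 of 105. The match lay in the middle 50% of the peak in 61 of the 105 (58.1%, 48.1 to 67.7%), and within the central 200 bases of members a word was found 7.98-fold (6.19 to 10.1) as often as in windows of that size. The 105 members were assigned to 104 genes. They had a median width of 576 bases, against 406.5 for all members. Among members with another peak within 10 kb, 4.76% (3.08 to 7.00%) held a word, and among those without one 6.53% (5.22 to 8.05%). These shares are not matched for width, which had a median of 495 bases in the former and 199 in the latter.

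The share was not particular to this distance from genes. A word of 10 bases was found in 6.02% of members, against 5.96% of the 604 intergenic peaks without a repeat within 10 kb of a TSS (difference 0.0604 percentage points, Newcombe interval -2.35 to 2.09) and 7.27% of the 1031 in gene deserts beyond 100 kb (-1.25, -3.28 to 0.625). Against all 16178 other peaks of the list, with 6.04%, the difference was -0.0184 (-1.11 to 1.25). Within the members, the share ran between 3.35% (1.46 to 6.49%) at 60 to 80 kb and 7.92% (5.28 to 11.3%) at 40 to 60 kb, and the intervals of the 6 distance bands overlapped.

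An open count of all 8-base words, not aimed at any miRNA, led to the same letters. Each word was counted together with its complement, over unmasked bases, and 4715 words occurred in 30 or more members. Of the 10 with the highest density in members over intergenic sequence of the territory, 7 were words of miR-9-5p. The first was CTAGCTGT, bases 12 to 19 of the miRNA, with 181 occurrences per Mb of members against 37.1 per Mb of territory, a ratio of 4.88, in 95 members. Close behind were TCTAGCTG, from base 11, with a ratio of 4.19 in 91 members, and GTTATCTA, from base 7, with 4.01 in 48. The median ratio of all these words was 1.08. The other 3 of the 10 were not words of miR-9-5p. They were ACACCTAG and CACCTAGA, which overlap each other (ratios 4.58 and 3.98 in 34 and 31 members), and ATGTTCAC (3.86 in 35). These were repeated within peaks, with 72, 71 and 99 occurrences.

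Set beside the other mature mouse miRNAs of RefSeq, miR-9-5p had the highest ratio. The 10-base words of each of 1679 miRNAs were counted on both strands in members and in the territory. For miR-9-5p they occurred 159 times in members, 8.62-fold the density of the territory, and the median of all miRNAs was 0.960. The miRNA next in rank, miR-9b-3p, with 8.60-fold, shares words with miR-9-5p when both strands are read. The highest miRNA that shared none and occurred 5 or more times was miR-341-3p, with 8.23-fold but from 5 occurrences. Of others that shared none, miR-339-3p had 7.13-fold from 15. With more occurrences, miR-7653-5p had 4.50-fold from 53 and miR-493-3p 3.65-fold from 104, and these shared none either.

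G4 motifs were as frequent in members as in comparable sequence, and CA runs were more frequent. A G-quadruplex (G4) motif, here 4 runs of 3 or more G separated by at most 7 bases, searched on both strands, was of interest because the study links miR-9 to these folds of G-rich DNA. It was present in 103 members (5.91%, 4.85 to 7.12%), against 5.77% of windows, a fold of 1.02 (0.840 to 1.23). With windows weighted to GC the fold was 0.951. Members had more G4 motifs than desert peaks (3.39%, difference 2.51 points, 0.871 to 4.04) and were not told apart from those within 10 kb (6.13%, difference -0.220, -2.65 to 1.82). In each of these sets, too, the share was near that of its own windows, at 0.984-fold and 0.877-fold. Runs of 6 or more CA units, or TG on the other strand, were in 255 members (14.6%, 13.0 to 16.4%), 2.57-fold (2.29 to 2.88) the share of windows and 2.35-fold among members whose centre was not soft-masked. This fold depended on width. It was 5.07 (3.93 to 6.42) in members of 250 bases or less, where the 10-base word of miR-9-5p had 4.52 (2.41 to 7.69), and 2.21 (1.94 to 2.51) in wider ones, and in the central 200 bases it was 3.75 (3.19 to 4.36). CA runs were not particular to members. Peaks within 10 kb had 15.2% (difference -0.610 points, -4.08 to 2.55) and desert peaks 16.9% (-2.255, -5.14 to 0.518). These were 2.38-fold and 3.815-fold the shares of their own windows. The rest of the list had 15.0% (difference -0.405, -2.08 to 1.41).

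Of 17 short words bound by families of transcription factors, 1 had an interval above equal shares. Each word was searched on both strands, and a match is a description of the letters, not a binding site. The GC box GGGCGGG of the Klf and Sp families, which is common at CpG-rich promoters and enhancers, was in 56 members (3.21%, 2.43 to 4.15%), against 1.86% of windows, a fold of 1.72 (1.31 to 2.23). With windows weighted to GC it was 1.44 (1.09 to 1.86), and in the central 200 bases 1.498 (0.952 to 2.24). Members carried it more often than desert peaks did (0.873%, difference 2.34 points, 1.27 to 3.36), whose own windows held it in 0.763% of cases. They were not told apart from peaks within 10 kb (3.48%, difference -0.266, -2.19 to 1.25) or from the rest of the list (3.01%, difference 0.201, -0.579 to 1.17).

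Words of factors that mark fibroblast enhancers had shares close to those of windows of the same widths. TGANTCA of AP-1, the dimers of Fos and Jun, was in 247 members (14.2%) with a fold of 1.08 (0.957 to 1.21). Among members whose centre was not soft-masked, AP-1 stood at 1.15 (1.01 to 1.30), so this value depends on how repeats were treated. GGAATGT of the Tead factors of Hippo signalling was in 128 members, with a fold of 1.16 (0.973 to 1.37), and 1.25 (1.04 to 1.49) among members that are not high copy. TGTGGTT of the Runx factors, which shares 5 letters with miR-9-5p, was in 180, with 1.13 (0.974 to 1.29). GTCTAGAC of the Smad proteins of TGFB signalling was in only 10 members (0.573%), with 1.51 (0.723 to 2.76).

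The remaining words gave no interval away from equal shares over all members. AGATAA of the Gata family, whose complement lies within miR-9-5p, had a fold of 1.04 (0.958 to 1.13), and 0.982 (0.896 to 1.07) once members and windows with a 10-base word of the miRNA were left out. AGNNGGCGC, the core of the site of the looping factor Ctcf, was in 22 members with 1.44 (0.906 to 2.18), and CAGCTG, the E-box of Tcf21 and Tcf12, in 274 with 1.01 (0.899 to 1.12). The E-box lay above equal shares in members of 250 bases or less, at 1.30 (1.02 to 1.63), and against windows that include soft-masked centres, at 1.15 (1.02 to 1.28). CCGGAAG of the Ets family had 1.16, TGACGTCA of Creb and Atf 0.681 (from 3 members), TTGCNNAA of Cebp 0.919, TTCCNGGAA of Stat 0.984 and TGTTTAC of Fox 1.05. CCATTGT of Sox had 0.919, TAATTA of homeodomain factors 0.907, TGACAG of Meis and Tgif 0.945 and AANATGGCG of Yy1 1.01.

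**Figure D2:**
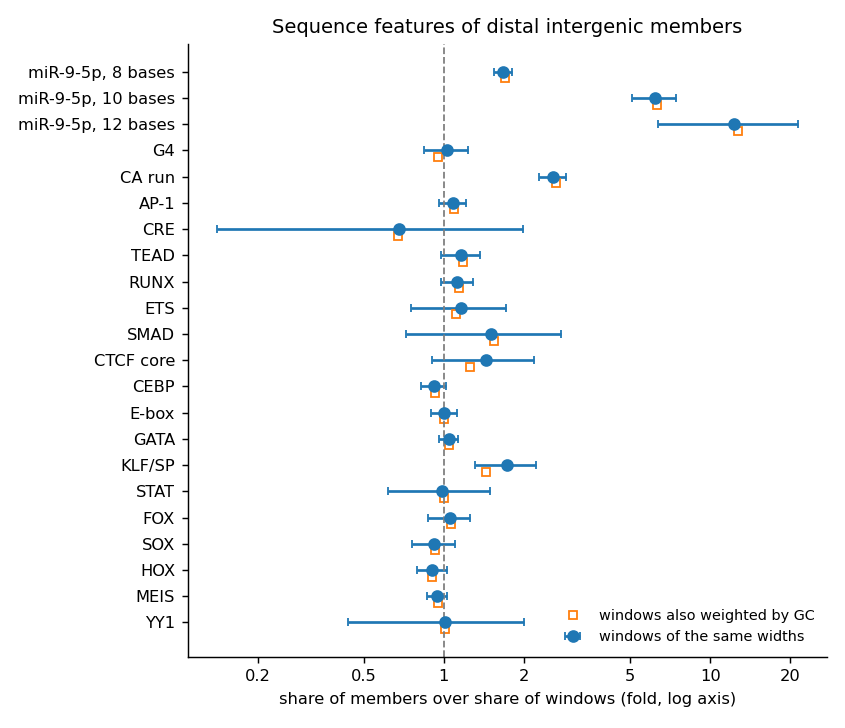
Share of members with each sequence feature over the share of windows of the same widths, on a log axis. Points and bars are folds with exact 95% intervals over 1744 members, squares are folds over windows also weighted by GC, and the dashed line marks equal shares. Words of miR-9-5p, CA runs and the KLF/SP word have intervals above the line, and G4 motifs lie on it at 1.02.

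Density of members fell with distance from genes. Intergenic sequence 10 to 100 kb from a TSS with an unmasked centre, called the territory here, amounted to 387.8 Mb. It held 1361 of the members when the annotation was recomputed, 3.51 per Mb (3.33 to 3.70). This was 0.760-fold (0.684 to 0.845) the density of the peaks within 10 kb, 4.62 per Mb, and 1.88-fold (1.72 to 2.06) that of desert peaks, 1.86 per Mb. Within the territory, density was 3.96 per Mb at 10 to 20 kb, 4.10 at 20 to 30 kb, 3.46 at 30 to 40 kb, 3.34 at 40 to 60 kb, 2.98 at 60 to 80 kb and 2.94 at 80 to 100 kb. The nearest band exceeded the farthest by 1.35-fold (1.10 to 1.65). When members in a row within 10 kb of each other were counted once, it was 1.34-fold (1.09 to 1.66). The peaks at both edges of the rule are given as a description. The first members past 10 kb lay 10036 bases from Clpb and 10046 from Mcl1, with widths of 653 and 2825 bases, and the last peaks kept out lay 9964 bases from both Slc25a3 and 1700125H20Rik, with widths of 660 and 574. At 100 kb the last members lay 99890 bases from Kbtbd8 and 99979 from Tmem170b, with widths of 138 and 736 bases, and the first peaks outside lay 100305 bases from Zfp970 and 100357 from Smad6, with widths of 83 and 170.

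**Figure D3:**
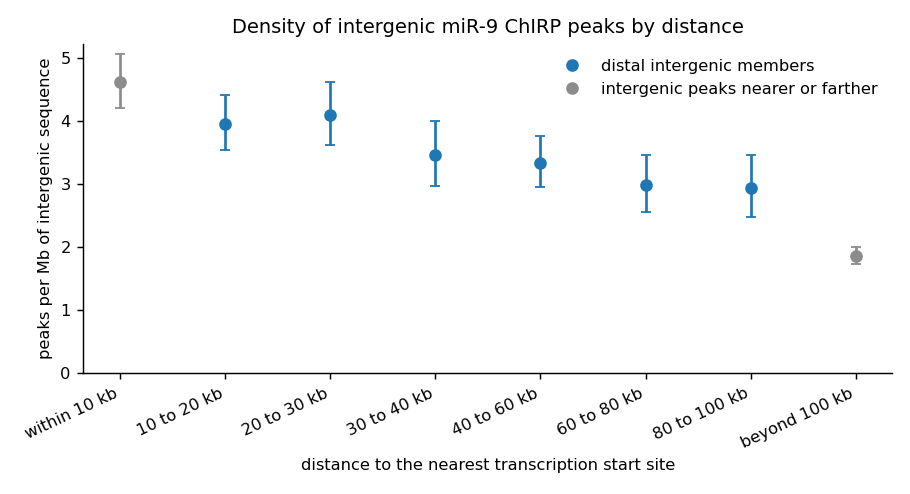
Peaks per Mb of intergenic sequence by distance to the nearest TSS, with exact Poisson 95% intervals. Blue points are members in 6 bands, and grey points are intergenic peaks without a repeat within 10 kb and beyond 100 kb. Density is 3.96 per Mb at 10 to 20 kb and 2.94 at 80 to 100 kb, between 4.62 nearer to genes and 1.86 farther away.

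Members were denser downstream of genes than upstream. In upstream territory, where the nearest TSS points away, there were 767 members in 241.3 Mb, or 3.18 per Mb (2.96 to 3.41). In downstream territory, past the end of the gene whose TSS is nearest, there were 594 in 146.5 Mb, or 4.05 per Mb (3.74 to 4.39). The ratio of upstream over downstream density was 0.784 (0.704 to 0.874), and 0.777 (0.694 to 0.870) with chained members counted once.

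Density differed more between chromosomes than with distance. Chromosome 6 held 225 of the members, and its territory had 7.68 per Mb (6.60 to 8.88), 2.37-fold (2.02 to 2.77) that of the other chromosomes together and 2.05-fold (1.71 to 2.43) with chained members counted once. Leaving aside Y, with 5 members in 0.817 Mb, chromosomes 19 and 11 followed with 6.05 and 5.41 per Mb. Chromosome 12 had 1.15 (0.700 to 1.77), chromosome 16 had 1.20 and chromosome 14 had 1.49. The other peaks of the list ran along, with 9.90 per Mb of chromosome length on chromosome 6 and 10.4 on 19, against 2.26 on 12, 2.99 on 14 and 3.06 on 16. The number of copies of each chromosome in MLg cells was not measured here, so its part in these densities was not tested.

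**Figure D4:**
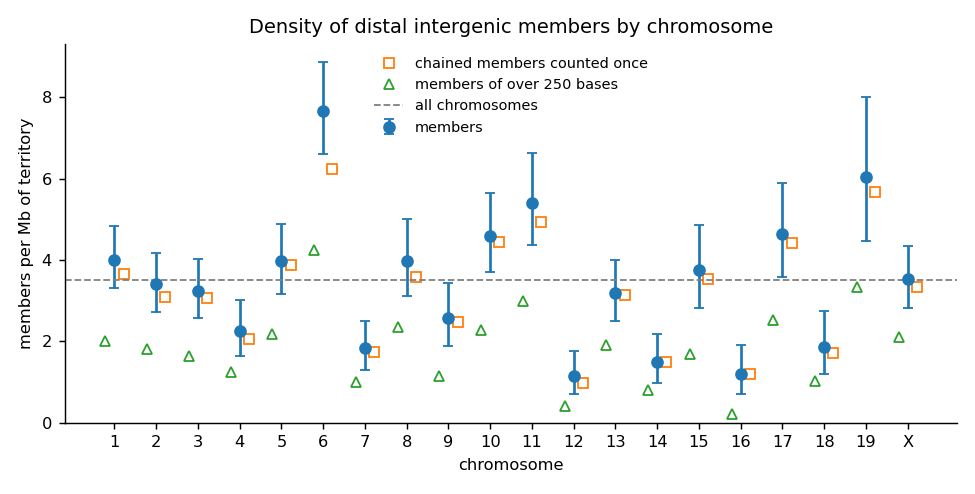
Members per Mb of territory on each chromosome except Y, whose territory is small. Circles with bars are all members with exact Poisson 95% intervals, squares count members chained over gaps of up to 10 kb once, and triangles are members of over 250 bases. Chromosome 6 is highest at 7.68 and chromosome 12 lowest at 1.15, against 3.51 over all chromosomes (dashed line).

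The densest bin of the genome lay near the end of chromosome 6, while the rest of that chromosome was also denser than the other chromosomes together. The genome was cut into bins of 10 Mb, of which 223 held at least 1 Mb of territory, with a median of 3.12 members per Mb. The bin from 140 to 150 Mb of chromosome 6, singled out after its value was seen, had 49 members in 1.99 Mb of territory, or 24.6 per Mb (18.2 to 32.5), and the next bin of the genome, on chromosome 1, had 17 members, or 11.2 per Mb (6.53 to 17.95). With chained members counted once, these bins had 27 and 15. Of its 55 members in all, none was high copy, 36 were over 250 bases wide and 3 held a 10-base word of miR-9-5p. They were concentrated in the megabase from 148 to 149, with 27 members assigned to Tmtc1, Gm6313, Caprin2 and 4930528G23Rik, and in that from 145 to 146, with 11 at Gm15706, 1700073E17Rik and Rassf8. Other peaks of the list were also dense in the bin, at 15.7 per Mb against a median of 6.20 over bins. Without this bin chromosome 6 still had 6.12 members per Mb (5.12 to 7.25), against 3.24 on the other chromosomes.

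Most members stood alone, and a small part was clustered. Another peak of the list, of any kind, lay within 10 kb of 504 members (28.9%, 26.8 to 31.1%). Peaks within 10 kb of a gene had 34.3% (difference -5.37 points, -9.77 to -1.10) and desert peaks 15.2% (difference 13.7 points, 10.6 to 16.7). Chained over gaps of up to 10 kb, members formed 1568 groups, of which 1456 were single peaks, 83 were pairs and 29 held 3 or more, with 122 members together.

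The largest clusters were of 2 kinds, over repeated sequence or over single-copy sequence. The first kind included 10 members at 4932411N23Rik on the X chromosome (126746632 to 126783494), of which 7 were high copy, meaning that most of their 32-base words occur at 5 or more places of the genome. At Cldn34c1, a gene of the claudin family on X, 8 members were all high copy (123047258 to 123075530). On chromosome 8, 9 members at 123590616 to 123623507 were all high copy. Of these, 5 were assigned to Gm22109, which the table lists as an rRNA gene, and 4 to Rhou, which codes for a small GTPase, with medians of 39 to 50 copies per word. All 9, those assigned to Rhou included, lay within 1 kb of the start of an rRNA gene in the broader GENCODE annotation. They are thus peaks over an array of rRNA genes. At G530011O06Rik on X, 6 members lay at 170001888 to 170022720, 4 of them high copy. The second kind was led by 6 members at Tmtc1, which codes for a mannosyltransferase of the endoplasmic reticulum, on chromosome 6 (148456829 to 148485089), with none high copy and 2 holding a miR-9-5p word. Reads that fit several places are placed at 1 of them by the aligner, so in the first kind the place of origin is not known.

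The genes with the most members followed these clusters. G530011O06Rik had 15 members, 7 on X and 8 on Y, of which 4 and 1 were high copy. Sequence that X and Y share at fewer than 5 places would not be called high copy. Whether the same sequence was counted on both chromosomes was not tested. Tmtc1 had 12, all upstream at 12780 to 82874 bases, of which 10 were over 250 bases. Gm21119 and Gm6313 had 11 each, with 11 and 0 of them high copy. After 4932411N23Rik with 10 and Cldn34c1 with 8 came Sptbn1, which codes for a spectrin of the membrane skeleton, with 7. These lay on chromosome 11 at 30238291 to 30290017, from 18820 to 69994 bases upstream, none was high copy and all 7 were over 250 bases. 4921513I03Rik and Gm10033 had 6 each, with 0 and 6 high copy, and 1700073E17Rik had 5. Of the 1387 assigned genes, 1174 had exactly 1 member and 60 had 3 or more.

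High-copy sequence was more common among members than in either neighbouring set. It lay under 176 members (10.1%, 8.72 to 11.6%), against 5.63% of peaks within 10 kb (difference 4.46 points, 1.95 to 6.64) and 7.27% of desert peaks (2.82, 0.622 to 4.89). Chromosomes X, 8 and 14 held 113 of the 176. Words of miR-9-5p were found in 8 of them (4.55%, 1.98 to 8.76%) and in 97 of the 1568 others (6.19%, 5.04 to 7.49%).

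The widest members included several of this kind as well as copies of mitochondrial DNA. The first 2 were at G530011O06Rik, with 9295 bases on X (170013426 to 170022720) and 7849 on Y (90738386 to 90746234). The peak on X was high copy, and that on Y, at a median of 2 copies per word, was not. Next came 6639 bases at Zxda, a zinc finger gene, with a median of 22 copies per word, and 5909 at 4932411N23Rik. The peak of 5151 bases at the collagen gene Col19a1 on chromosome 1 (24611399 to 24616549) shared 89.4% of its 24-base words with the mouse mitochondrial genome. In all, 5 members shared over 10% of these words. Another lay at Gad2, which codes for the enzyme that makes the transmitter GABA, on chromosome 2 (22587118 to 22590344, 56.7% of words), and the others were at Fhl4, 4933402J10Rik and Ccnh. Reads of mitochondrial DNA at these peaks were not told apart from reads of the nuclear copy.

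Among the 10 widest were also 2 peaks over single-copy sequence that were assigned to Grem1 and Itgb6. A peak of 5129 bases lay 12964 bases downstream of the start of Grem1, which codes for an antagonist of bone morphogenetic proteins, on chromosome 2 (113743120 to 113748248), and held both a miR-9-5p word and a G4 motif. A peak of 3944 bases lay 24455 bases upstream of Itgb6, the integrin subunit known to activate latent TGFB, on chromosome 2 (60745087 to 60749030). Both peaks had a median of 1 copy, as did that at Col19a1. The assignment was by nearest TSS alone, and a link of the peaks to these genes was not tested. Of the remaining 3, 2 were at Gm15319 and Gm21944 on chromosome 8, with 5009 and 4196 bases at 8 and 7 copies. The last was again at G530011O06Rik on Y, with 3683 bases at 3 copies, and was not high copy.

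Widths fell into 2 classes, as in the rest of the list. The quartiles were 157.8, 406.5 and 573 bases, with 821 members (47.1%) of 250 bases or less, at a median of 155, and 923 wider ones, at a median of 568. Peaks within 10 kb had 44.0% narrow ones, not told apart (difference 3.04 points, -1.58 to 7.60), and desert peaks 52.8% (difference -5.69 points, -9.51 to -1.84). The list merges calls at more than 1 fragment shift, and the part of this in the widths was not tested. Wide members held a miR-9-5p word in 9.97% and narrow ones in 1.58% of cases, and relative to windows of their own widths the folds were 6.56 (5.34 to 7.95) and 4.52 (2.41 to 7.69). Median GC was 42.5% in members, 44.1% nearer to genes and 37.9% in deserts.

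A small share of members was CpG-rich or lay near a transcript start of the broader GENCODE annotation. CpG-rich sequence, with a GC content over 50% and an observed over expected CpG of over 0.6, was found in 30 members (1.72%, 1.16 to 2.45%), 4.71-fold (3.19 to 6.70) the share of windows. The fold was 11.6 (6.92 to 18.3) in members of over 250 bases, 2.49 (1.29 to 4.33) in narrower ones and 6.88 (3.15 to 13.04) by a stricter rule, from 9 members. Only 1 desert peak had it (0.0970%, difference 1.62 points, 0.941 to 2.35), against 2.48% of peaks within 10 kb (difference -0.763, -2.42 to 0.450). The rest of the list, which includes peaks at promoters, had 3.17% (difference -1.45, -2.03 to -0.675). Examples were peaks of 764 bases at Tcf12, which codes for an E-box factor, with 60.3% GC, of 728 bases at the signalling gene Wnt7b with 64.6% and of 725 bases at Eif2s3x with 59.4%, chosen after their values were seen. The nearest GENCODE transcript starts lay 4270, 11184 and 34584 bases from these 3 peaks, so none of them is at an annotated start. Others of the 30 did lie within 1 kb of such a start, among them peaks of 760, 555 and 525 bases near Gm27940, Zfp638 and Gm6410. Several of these others were high copy, including peaks of the rRNA array on chromosome 8. In GENCODE, a broader annotation, 70 of the 1361 members of the territory (5.14%, 4.03 to 6.45%) lay within 1 kb of a transcript start, against 3.70% of the territory, a fold of 1.39 (1.09 to 1.74). Over all members the share was 5.96%, against 11.3% of the rest of the list (difference -5.36, -6.49 to -4.05). Many of the starts near members belonged to pseudogenes, and the rRNA genes of the chromosome 8 cluster, above, were also among them. Starts of protein-coding genes, such as Socs2 and Mecom, and of lincRNAs were among them as well. Transcription from these starts was not tested, and nearness alone does not show it. Inside a GENCODE gene lay 239 (17.6%), 1.19-fold (1.06 to 1.33). For those of the lincRNA class the fold was 1.07 (0.855 to 1.32), and for those of protein-coding genes 1.38 (1.12 to 1.67).

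Genes that the deposited table types as protein-coding were assigned 1339 of the members, and noncoding RNA genes 339. At least 1 member was assigned to 1091 of 21000 protein-coding genes, or 5.20%. Beside this background, lists of genes are described by their share of genes with a member and by members per Mb of the territory nearest to them, since a gene with more empty sequence around it has more room. Over all protein-coding genes the latter was 3.65 per Mb (3.43 to 3.89).

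All 4 lists of fibroblast and TGFB genes had a share above the background. For matrix and surface genes and for the regulators the interval lay above it too, and for TGFB signalling and TGFB-induced genes it included the background. In all 4 lists the interval of members per Mb included the value of all genes. Such shares were not particular to these lists. Homeobox genes had 22.2%, early response genes 18.2%, adhesion genes 14.6%, lung epithelium 12.5%, and neurons and housekeeping genes 10% each. Endothelium, leukocytes, looping genes and the olfactory and vomeronasal receptors lay below the background. Of 38 genes of fibroblast matrix and surface, 8 had a member (21.1%, 9.55 to 37.3%), with 7.66 members per Mb (3.31 to 15.1). The nearest were at Fbln1, which codes for a matrix glycoprotein, 17085 bases upstream, at the chemokine gene Cxcl12 19544 bases upstream, at Mgp, the matrix inhibitor of calcification, 22219 bases upstream, and at Lum, a proteoglycan of collagen fibrils, 27986 bases upstream. Of 39 TGFB-induced genes, 5 had one (12.8%, 4.30 to 27.4%; 7.40 per Mb, 2.97 to 15.2). They were the matrix gene Thbs1 at 16456 bases, the collagen gene Col1a2 with 3 members from 20695 to 74749 bases upstream, Snai1, a repressor of epithelial genes, at 37243 and the intermediate filament gene Vim at 61722, with Col6a3 beyond these. Of 42 TGFB signalling genes, 5 had one (11.9%, 3.98 to 25.6%; 3.85 per Mb). These included Grem1, above, the latent TGFB binding gene Ltbp1 at -14580, the receptor gene Tgfbr1 at -18476 and the signal transducer gene Smad5 at 47109. Of 44 regulators of fibroblasts and mesenchyme, 7 had one (15.9%, 6.64 to 30.1%; 4.30 per Mb), the nearest being the transcription factor genes Tbx20 at -17969, Sox9 at -19134, Meox1 at -25528 and Klf4 at 29549.

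Homeobox, early response and adhesion genes had shares whose intervals lay above the background, and densities whose intervals included that of all genes. Of 54 homeobox genes outside the Hox clusters, 12 had one (22.2%, 12.04 to 35.6%), with 4.06 members per Mb (1.85 to 7.70). Among them were Nkx6-1 (11198 bases), Pax2 (-11759) and Lhx3 (15630), which act in the pancreas, kidney and pituitary. Of 33 immediate early and AP-1 genes, 6 had one (18.2%, 6.98 to 35.5%; 4.71 per Mb). Btg2, a growth inhibitor, had members at 11205 and -14095 bases, the first with a miR-9-5p word, the zinc finger gene Klf6 had one at 11910, the growth regulator Myc at -24741 and the nuclear receptor gene Nr4a2 at 44277. Of 41 genes of cadherins, contactins and other adhesion molecules, 6 had one (14.6%, 5.57 to 29.2%; 2.46 per Mb), the nearest at Slitrk4, Cntn3, Cdh18 and Cntn6. With members of over 250 bases alone, 8 homeobox genes, 3 early response genes and 1 adhesion gene had one, against 2.80% of all protein-coding genes, so the share of adhesion genes was then no longer above the background.

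Lists of other cell types, of looping genes and of housekeeping genes were small, and the intervals of their shares included the background. Lung epithelium had 4 of 32 genes (12.5%, 3.51 to 28.99%), with the keratin gene Krt8, the epithelial regulator Grhl2, the surfactant gene Sftpb and Rtkn2. Neurons had 3 of 30 (Gad2, Snap25 and Neurod6), leukocytes 1 of 28 (Gata3) and endothelium 0 of 24, which allows a share of up to 14.2%. Mediator, cohesin and looping genes had 2 of 44, with Med13, which codes for a subunit of the Mediator complex, at -23916 and -58169 bases and its partner kinase gene Cdk19 at -13449. Housekeeping genes had 3 of 30 (Ppia, Actb and Ywhaz). Olfactory receptors had 10 of 1107 (0.903%, 0.434 to 1.66%), below the background, and their 1.63 members per Mb (0.654 to 3.35) were also below the density over all genes. The nearest were at Olfr444, Olfr1287, Olfr131 and Olfr811. Vomeronasal receptors had 13 of 352 (3.69%, 1.98 to 6.23%; 2.67 per Mb, 1.42 to 4.56), the nearest at Vmn1r234, Vmn1r184, Vmn1r3 and Vmn1r165.

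**Figure D5:**
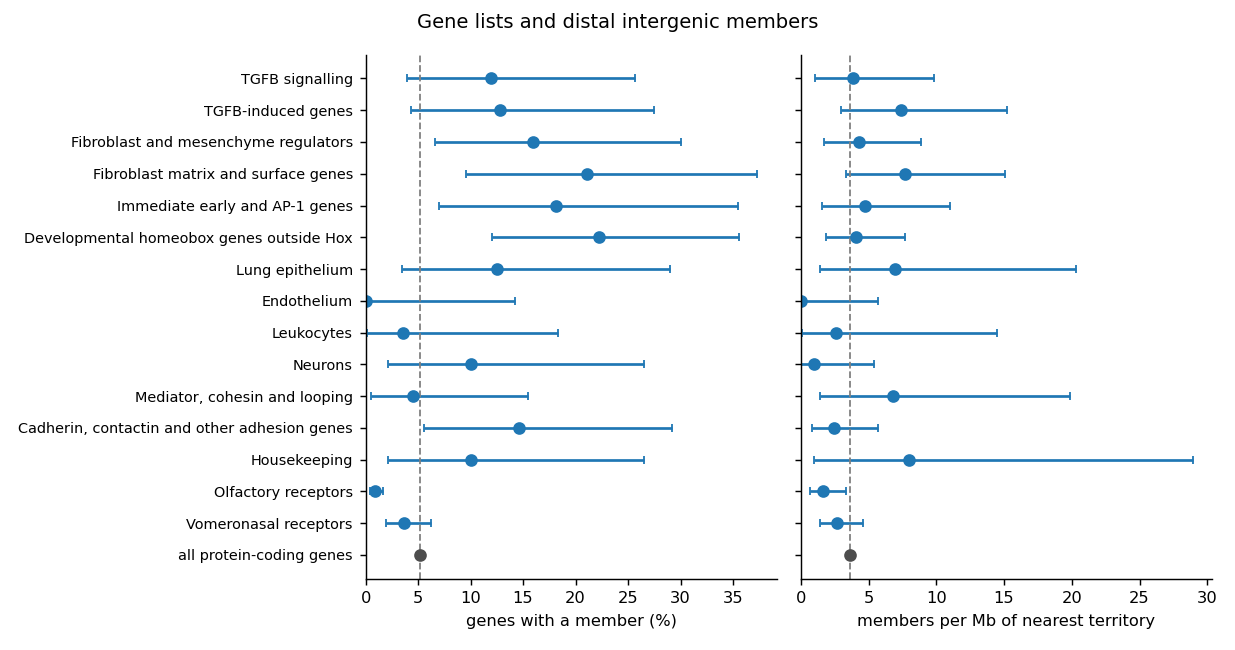
Share of the genes of each list with a member (left) and members per Mb of the territory nearest to the genes (right), with exact binomial and Poisson 95% intervals, and all protein-coding genes in the last row and as dashed lines. Fibroblast matrix and surface genes lie at 21.1% and 7.66 per Mb, homeobox genes outside Hox at 22.2% and 4.06, and olfactory receptors at 0.903% and 1.63, against 5.20% and 3.65 over all.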

How the data were processed

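ChIRP-seq of miR-9 in MLg cells gave 1 capture and 1 input library. Per the methods and processing notes, reads were trimmed with Trimmomatic 0.36, aligned with Bowtie2 to mm10, cleared of duplicates with Picard and called with MACS over the input at more than 1 fragment shift, and the calls were merged with bedtools and annotated with HOMER. SAMtools and deepTools are also named. The methods name a let-7d probe, whereas the labels name miR-9. The authors deposited 1 peak list, without read counts. Its score, as deposited, was 0 throughout, and its annotation was rejoined in 8093 peaks broken over fields.

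The annotation was recomputed from curated RefSeq transcripts of GRCm38. It placed 1651 members (94.7%) in the same band, and gave the deposited distance for 88.4% and the same gene for 89.1%. Densities used the 1361 with an unmasked centre. In all, 18.1% of members had a soft-masked centre although HOMER named no repeat there. Windows were counted exhaustively, in 24 width classes and GC bins of 2 percent. Words, motifs and distances were searched with numpy 2.4.6, pandas 2.3.3 and numba 0.67.0, intervals came from scipy 1.17.1 and plots from matplotlib 3.10.9. Scripts were checked on made-up sequence. Intervals are exact binomial, exact Poisson or Newcombe, at 95%. No p-value was computed, since each group has 1 library.

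Members, lists and tests were chosen with earlier results of these data known. Named were the 10 genes with most members, up to 4 genes of each list, the 10 widest members, 8 with the longest miR-9-5p stretches and the 5 largest clusters. A gene that this rule names in the homeobox list is not reported here. The closing section gives the alternatives.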

Additional observations from a re-analysis of the deposited data

How the results depend on the processing

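No paired analysis was possible because each group has 1 library and both enter 1 peak list. The miR-9-5p word kept a fold above 1 under all alternatives, at 4.52 in members of 250 bases or less, 7.98 in the central 200 bases, 1.67 with words of 8 bases and 12.3 with 12. The number of motifs with an interval above equal shares was 1, and 4 with windows of soft-masked centre included, 2 among members of over 250 bases or not high copy and 0 in the central 200 bases. Members with another peak within reach were 19.7% at 5 kb, 42.4% at 20 kb and 16.5% with members alone as neighbours. With repeats kept, the rule took 24.2% of the list. Density was 3.24 per Mb with chained members counted once, 1.87 for members of over 250 bases and 2.56 with soft-masked centres kept, the last chosen after seeing the data. Genes with a member of over 250 bases were 2.80% of protein-coding genes. High-copy members were 5.22% at 10 or more places and 16.2% at 2 or more, and CpG-rich members 0.516% by the stricter rule (0.75 and 55%). The G4 motif stayed within its interval under all alternatives. Depth was unknown, so weak contacts cannot be told from absent ones.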
